A study of Mus musculus with 4 samples.

Results

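The alpha-actinin genes Actn1, Actn2 and Actn4 were followed through the DNA methylation data of the frontal cortex and the hippocampus. A CpG was a member when the frontal cortex table placed it in the promoter, an exon or an intron of 1 of the 3 genes, or when it lay, in the hippocampus, between 1 kb before the transcription start and the end of the gene and was covered by at least 5 reads in both libraries. These rules gave 24 of the 9731 CpG sites listed for the frontal cortex (20 in Actn1, 3 in Actn2 and 1 in Actn4) and 419 of the 2226271 CpG sites of the hippocampus (188 in Actn1, 67 in Actn2 and 164 in Actn4). The frontal cortex table lists called sites alone, and the genes were chosen for those calls, so the frontal cortex levels are given as a description with no test.

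The study asked whether exposure to estriol (E3), an estrogen of pregnancy, alters the methylation of DNA in the adult brain. The E3 group were wild type CD-1 females whose mothers carried a mini-osmotic pump with E3 in DMSO, begun on gestation day 9 and run for 7 days. The control group (CT) were wild type CD-1 females whose mothers received DMSO alone in the same way, and the labels give an age of 8 weeks for both groups. The growth protocol gives the mothers the same age, and the study profiled expression in offspring brains at a later age, so the age at which this DNA was taken is uncertain. Each tissue had 1 E3 library and 1 CT library of bulk DNA, and the number of mice behind a library is not stated, so no spread between animals could be measured. CD-1 is an outbred stock. No transcripts were measured in these libraries, so the tissue labels could not be checked against markers, and a change within cells and a change in the mixture of cells cannot be told apart.

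DNA methylation was read by bisulfite sequencing of fragments cut by TaqαI, whose motif is TCGA, and MspI, whose motif is CCGG. Unmethylated cytosines are converted and read as thymine, so the methylation level of a site is the share of its reads that stayed cytosine. Over all hippocampus CpG sites the coverage had a median of 27 reads in E3 and 9 reads in CT. The coverage behind the frontal cortex levels is unknown.

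Alpha-actinins are dimeric rods that crosslink actin filaments. Each chain holds an actin-binding domain of calponin homology type, a rod of spectrin repeats and a calmodulin-like end with EF hands. Actn1 and Actn4 encode the non-muscle forms found at stress fibres, adhesions and cell junctions. Actn2 encodes a form of the muscle Z disc that is also present in neurons, where it binds NMDA receptor subunits and the kinase CaMKII in dendritic spines. CpG islands at the starts of active genes are as a rule unmethylated, while CpGs inside genes are mostly methylated.

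All 3 genes lie on the minus strand of mm10, Actn1 at chr12:80167542-80260420, Actn2 at chr13:12269426-12340732 and Actn4 at chr7:28893248-28962351. The sequences that carry the results are printed from the plus strand of GRCm38 (mm10), and a CpG is named by the position of its plus strand cytosine. Where the hippocampus is described on its own, a minus strand site is named by its own cytosine, 1 base further on. The first lines show the stretch of Actn1 at chr12:80168378-80168560 that held 19 of the 24 frontal cortex sites. It covers part of the last coding exon and the adjoining part of the intron before it. Capitals mark the CpGs listed in the frontal cortex, and in the second line the CpGs called in the hippocampus.
Actn1, frontal cortex: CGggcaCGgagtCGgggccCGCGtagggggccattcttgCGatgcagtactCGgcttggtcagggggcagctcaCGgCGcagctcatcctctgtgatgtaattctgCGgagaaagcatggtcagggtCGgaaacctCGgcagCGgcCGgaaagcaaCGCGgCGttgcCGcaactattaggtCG
Actn1, hippocampus: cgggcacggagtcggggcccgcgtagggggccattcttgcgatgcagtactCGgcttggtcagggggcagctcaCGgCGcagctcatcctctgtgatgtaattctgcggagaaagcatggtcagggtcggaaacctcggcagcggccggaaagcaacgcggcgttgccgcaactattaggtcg
The next lines show an intron of Actn2 at chr13:12283041-12283170, which held the 2 CpGs of the gene with levels of 100% and 0%. Capitals mark the listed CpGs of the frontal cortex, and in the second line those called in the hippocampus.
Actn2, frontal cortex: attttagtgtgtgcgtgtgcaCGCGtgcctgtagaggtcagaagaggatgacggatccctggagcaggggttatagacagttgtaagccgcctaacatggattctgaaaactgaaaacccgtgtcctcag
Actn2, hippocampus: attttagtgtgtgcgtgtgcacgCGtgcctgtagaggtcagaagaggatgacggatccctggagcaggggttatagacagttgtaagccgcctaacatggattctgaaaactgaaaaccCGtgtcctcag
The last lines show the only frontal cortex CpG of Actn4, in an intron at chr7:28894444-28894503, and the run of called hippocampus CpGs of Actn4 at chr7:28913300-28913430, in capitals.
Actn4, frontal cortex: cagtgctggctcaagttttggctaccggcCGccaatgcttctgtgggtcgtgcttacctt
Actn4, hippocampus: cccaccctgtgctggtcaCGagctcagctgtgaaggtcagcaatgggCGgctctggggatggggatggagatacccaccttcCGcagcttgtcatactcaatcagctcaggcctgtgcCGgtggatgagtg

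In the frontal cortex, the 3' end of Actn1 was more methylated in E3 than in CT at every CpG of a short stretch. The 183 bases hold 19 CpGs in the reference, all 19 were listed, and all 19 were higher in E3. The E3 levels lay between 24.3% and 57.1% (median 31.4%) and the CT levels between 0% and 10.6% (median 1.49%). A gap between the levels is partly built in, since only called sites are listed. In CT, 7 of the 19 CpGs had a level of 0%. The differences had a median of 28.6 points and a range of 18.2 to 57.1 points. Over all listed CpG sites, 36.3% were higher in E3, and this background is given for reading alone, since the genes were chosen for their calls.

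The last coding exon of Actn1 encodes the C-terminal end of the protein, which belongs to the calmodulin-like domain. Of the 19 CpGs, 9 lay in the coding part of this exon and 10 in the intron before it. In the exon the E3 levels lay between 27.5% and 36.1% and the CT levels between 0% and 8.96%. In the intron they lay between 24.3% and 57.1% in E3 and between 0% and 10.6% in CT.

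The levels within the stretch formed steps at an MspI motif, CCGG, that starts at position 80168523. The 13 CpGs before this motif averaged 30.2% in E3 and 3.21% in CT. The CpG inside the motif had 32.6% in E3 and 10.6% in CT. The 5 CpGs after it averaged 47.1% in E3 and 0.606% in CT. CpGs on the same side of the motif can share reads and are not independent measurements.

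The largest difference of the stretch was at 80168545, with 57.1% in E3 and 0% in CT. Next came 80168534 and 80168536, each with 46.4% in E3 and 0% in CT. The CpG at 80168539 had 42.9% in E3 and 0% in CT. The CpG at 80168559, the last of the stretch, had 42.9% in E3 and 3.03% in CT. These 5 CpGs were the ones after the motif. The smallest difference was at 80168484, with 24.3% in E3 and 6.06% in CT.

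The stretch is rich in CpGs. Its GC content is 63.4%, and all 19 CpGs were marked as lying in a CpG island, as were 2434 of the 9731 listed sites. Of these island sites 19.3% were higher in E3. Of 638916 windows of 183 bases along chromosome 12, 0.180% held as many CpGs. The palindromic motif CCGG, which reads alike on both strands, was present in 9.10% of these windows and TCGA in 8.91%. The stretch held 1 CCGG and 0 TCGA. Another CCGG starts at 80168377, 1 base before the stretch, and holds its first CpG, 80168378.

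**Figure D1:**
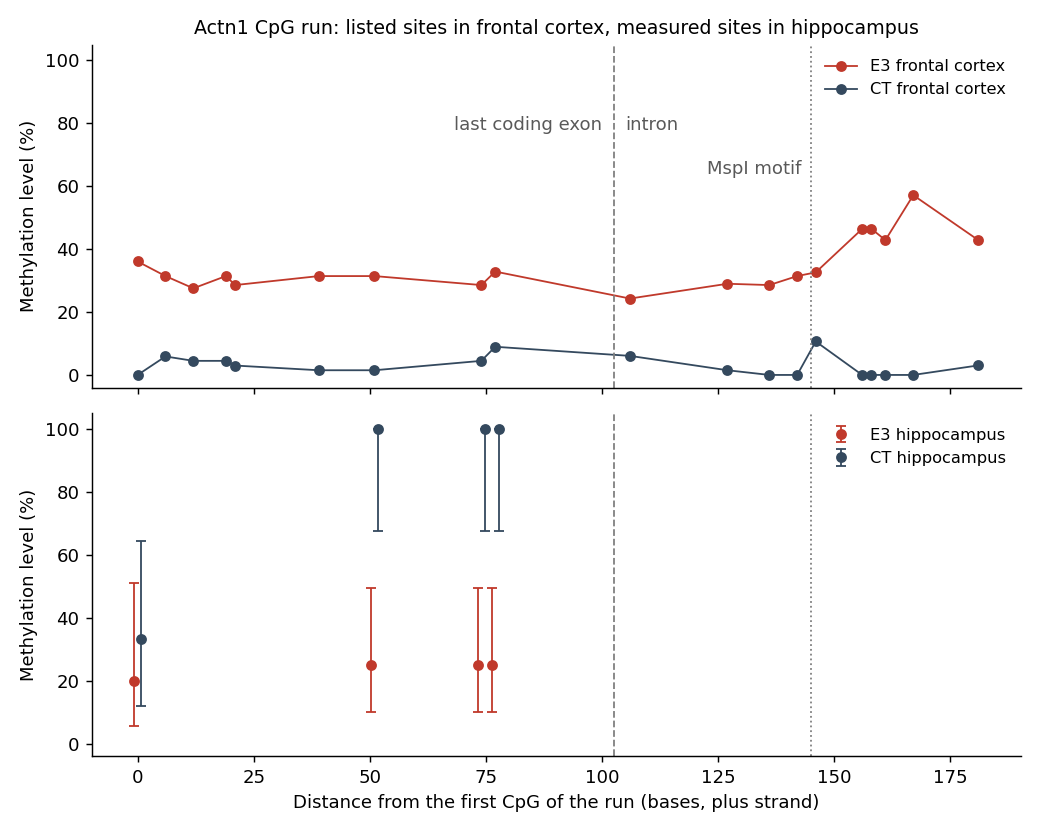
Methylation level (%) of the CpGs of the Actn1 stretch against the distance in bases from its first CpG, for E3 and CT in the frontal cortex (above) and the hippocampus (below, with 95% Wilson intervals, points moved sideways slightly for legibility). The frontal cortex levels lie between 24.3% and 57.1% in E3 and between 0% and 10.6% in CT, while in the hippocampus 3 CpGs stand at 25% in E3 and 100% in CT.

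One Actn1 CpG went the other way. The CpG at 80259620, in an intron 800 bases downstream of the first start and in a CpG island, had 5.48% in E3 and 22.1% in CT. It lies in a TCGA motif and was not measured in the hippocampus.

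The rule that chose the genes used no hippocampus level, although earlier results of both tissues were known, and the hippocampus libraries read 4 CpGs of the same Actn1 stretch, all on the minus strand. There the levels were lower in E3. At 80168378, 20% of 10 reads were methylated in E3 and 33.3% of 9 reads in CT, which was no call. At 80168429, 80168452 and 80168455, 25% of 16 reads were methylated in E3 and 100% of 8 reads in CT, each with p = 0.00135 by the 2-sided Fisher's exact test and a Benjamini-Hochberg adjusted p = 0.0432. These 3 CpGs had the same read totals and the same methylated counts, so they are not separate measurements. In the sum over the 4 CpGs a read counts at each CpG it covers. By that sum 24.1% of 58 read counts were methylated in E3, with a 95% Wilson interval of 15.0% to 36.5%. In CT 81.8% of 33 read counts were methylated, with an interval of 65.6% to 91.4%. The difference was -57.7 points (95% interval -70.9 to -37.3, Fisher's exact p = 1.7e-07). These intervals are too narrow and this p-value too small, since repeated reads were treated as independent. With the CpGs of equal totals counted once, the difference was -41.6 points (Fisher's exact p = 0.0105). The test compares a pair of libraries, not the conditions.

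Cytosines outside CpGs on the same strand of this stretch were read as well. These 14 cytosines had a median level of 0% in E3 and 0% in CT, with a highest level of 6.25% in E3 and 25% in CT.

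Across the 3 genes, 8 of the 24 frontal cortex CpGs were measured in the hippocampus and 4 of them were called there, 3 in Actn1 and 1 in Actn2. All 4 were lower in E3 in the hippocampus, and all 4 had been higher in E3 in the frontal cortex. The 3 Actn1 CpGs had the same read totals and methylated counts, so they are not separate measurements. These calls had the strands summed, and by that count 12.1% of all hippocampus CpGs were called and 5.36% were called lower. The tissues were prepared as separate libraries, and the difference between them was not tested.

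Over the whole genes, differences between the hippocampus libraries went in both directions. A CpG site was called when the levels differed by at least 10 points with an unadjusted p under 0.05 by the 2-sided Fisher's exact test, each strand being a site of its own. By this rule 36 of the 419 sites (8.59%) were called, 15 higher and 21 lower in E3, against 11.0% of all CpG sites (6.18% higher and 4.83% lower). The 36 sites fell in 22 runs of neighbours on 1 strand no more than 150 bases apart. Counted by run, each with the sign of its site of lowest position, Actn1 had 5 higher and 6 lower, Actn2 3 higher and 3 lower, and Actn4 2 higher and 3 lower. After Benjamini-Hochberg adjustment over all CpG sites, 14 of the 419 sites (3.34%) were called in Fisher's exact test, against 3.35% of all sites.

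**Figure D2:**
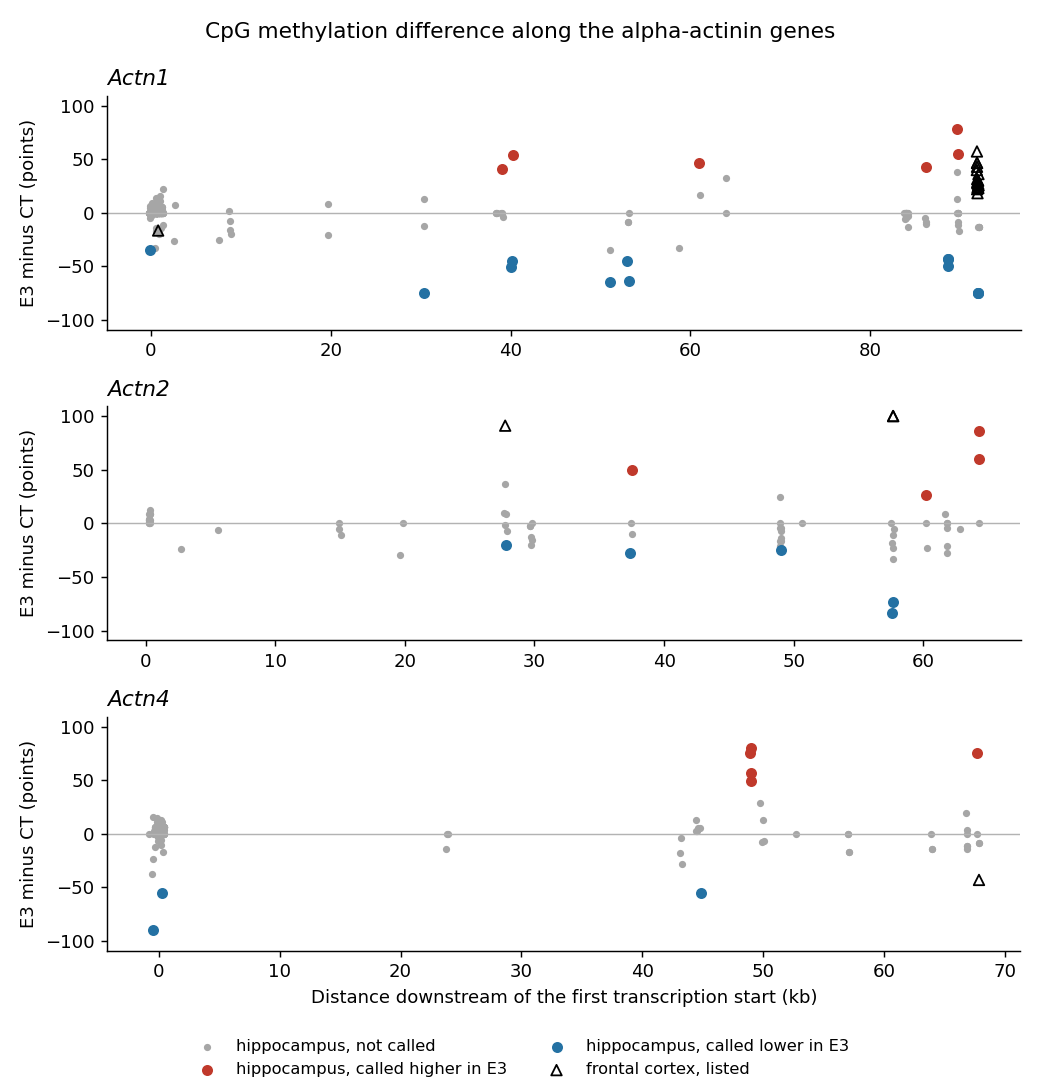
Difference in CpG methylation (E3 minus CT, percentage points) against the distance downstream of the first transcription start (kb) for Actn1, Actn2 and Actn4, with hippocampus sites as dots and frontal cortex sites as triangles. Most sites near the starts lie close to 0, and called sites lie mostly inside the genes. The lowest called site, at -89.3 points, lies 535 bases before the start of Actn4. The frontal cortex triangles at the 3' end of Actn1 (18.2 to 57.1 points) stand above hippocampus sites at -75 points.

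The CpGs around the starts carried little methylation in either library. Within 1 kb of the first start of Actn1, 88 sites averaged 1.17% in E3 and 1.65% in CT, and 1 was called. At Actn2, 12 sites averaged 4.95% in E3 and 0.595% in CT, and 0 were called. At Actn4, 126 sites averaged 3.35% in E3 and 3.75% in CT, and 2 were called. Within 1 kb of any start of the 3 genes, 7 of 266 sites (2.63%) were called, against 5.56% of all promoter sites.

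Inside the genes the sites were mostly methylated and more often called. In exons 16 of 73 sites (21.9%) were called, against 13.6% of all exon sites. Actn1 gave 9 of these 16 calls, among 28 exon sites (32.1%), and its 9 called exon sites fell in 5 runs. In introns 13 of 80 sites (16.2%) were called, against 14.7% of all intron sites.

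Averaged over its sites, Actn1 had a level of 28.8% in E3 and 32.0% in CT, a mean difference of -3.13 points over 188 sites. With reads pooled in place of sites the sign turned, to 1.40 points (95% interval -1.02 to 3.76). Actn2 averaged 67.8% in E3 and 71.9% in CT over 67 sites, a mean difference of -4.11 points. Actn4 averaged 19.8% in E3 and 19.0% in CT over 164 sites, a mean difference of 0.79 points. Sites under 10% in both libraries made up 104 of 188 sites in Actn1, 112 of 164 in Actn4 and 11 of 67 in Actn2.

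In Actn1, 19 of 188 hippocampus sites (10.1%) were called, 6 higher and 13 lower in E3, in 11 runs. The share over all CpG sites was 11.0%, with 6.18% higher and 4.83% lower. The smallest p-values among the higher sites were at 80170743, 80170680 and 80220202. At 80170743, on the minus strand of a coding exon, 100% of 17 reads were methylated in E3 and 22.2% of 9 reads in CT (Fisher's exact p = 5.47e-05). At its neighbour 80170680, in the intron, 88.2% of 34 reads were methylated in E3 and 33.3% of 12 reads in CT (Fisher's exact p = 0.000625). The plus strand of both CpGs was read as well, and there every read was methylated, 24 and 22 reads in E3 and 6 and 6 reads in CT.

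An intron of Actn1 held calls in both directions on 1 strand, within 1 kb of an annotated internal start, so that these sites counted as promoter sites. At 80220202, 62.5% of 48 reads were methylated in E3 and 8.33% of 12 reads in CT (Fisher's exact p = 0.000904). At 80220335, in the same run, 49.0% of 49 reads were methylated in E3 and 100% of 12 reads in CT (Fisher's exact p = 0.000814). At 80220274, between them, 55.3% of 47 reads were methylated in E3 and 100% of 11 reads in CT. The E3 library was thus close to an intermediate level at all 3 sites, while the CT library stood near 0% or at 100%.

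The other 3 higher sites of Actn1 had E3 levels between 82.6% and 96% on 23 to 30 reads, against CT levels between 40% and 55.6% on 5 to 10 reads. Among the 13 lower sites of Actn1, all but the upstream site had a CT level of 100%, on 5 to 12 reads. The E3 levels of those 12 sites lay between 25% and 57.1%. The upstream site, chosen for mention after its values were seen, lies at 80260552, at -132 bases from the first start. There 0% of 24 reads were methylated in E3 and 35% of 20 reads in CT (Fisher's exact p = 0.00202, adjusted p = 0.0569). It was the only called site within 1 kb of the first start of Actn1. Its surroundings at chr12:80260522-80260582 are shown with the called CpG in capitals.
Actn1, upstream: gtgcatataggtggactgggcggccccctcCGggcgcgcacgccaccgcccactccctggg

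Actn2 was the most methylated of the 3 genes in the hippocampus, and 9 of its 67 sites (13.4%) were called, 4 higher and 5 lower in E3. Of all CpG sites 11.0% were called, 6.18% higher and 4.83% lower. In a coding exon near the 3' end, at 12276473 on the plus strand, 100% of 24 reads were methylated in E3 and 14.3% of 14 reads in CT (Fisher's exact p = 3.36e-08, adjusted p = 1.92e-05). This was the smallest p of the 36 called sites. On the minus strand of the same CpG 100% of 36 reads were methylated in E3 and 100% of 6 reads in CT. At 12276440, in the same exon, 75% of 12 reads were methylated in E3 and 15.4% of 13 reads in CT (Fisher's exact p = 0.00483). At 12280507, in another coding exon, 100% of 57 reads were methylated in E3 and 73.7% of 38 reads in CT (Fisher's exact p = 4.68e-05). Its neighbour 12280440, on the same strand, had totals of 29 in E3 and 19 in CT. The E3 total was 24 at 12276473 beside 12 at 12276440, while the CT totals were 14 and 13. Fragments may have been counted more than once at the higher totals, which would make those p-values too small, and this was not tested.

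A further intron of Actn2 held a called pair of opposite sign on the minus strand. At 12303236 100% of 9 reads were methylated in E3 and 50% of 18 reads in CT, while at 12303333 the levels were 72.7% of 11 reads in E3 and 100% of 20 reads in CT. The remaining call, at 12291726 in a coding exon, had 75% of 48 reads methylated in E3 and 100% of 18 reads in CT on the plus strand, and on the minus strand 59.1% of 44 reads in E3 and 66.7% of 12 reads in CT, with no call.

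The intron stretch of Actn2 printed above was opposite in the tissues. In the frontal cortex 12283062 and 12283064 had 100% in E3 and 0% in CT. In the hippocampus, 12283064 had 16.7% of 18 reads methylated in E3 and 90% of 10 reads in CT (Fisher's exact p = 0.000273, adjusted p = 0.0144). The adjoining CpG at 12283062 had 16.7% of 18 reads in E3 and 40% of 10 reads in CT (Fisher's exact p = 0.207). Further along the same strand, 12283160 had 5.88% of 17 reads methylated in E3 and 90% of 10 reads in CT (Fisher's exact p = 2.03e-05), and this CpG was not listed in the frontal cortex.

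The third frontal cortex CpG of Actn2, at 12312990 in an intron, had 91.0% in E3 and 0% in CT. In the hippocampus, with both strands summed, 60.2% of 83 reads were methylated in E3 and 77.4% of 31 reads in CT (Fisher's exact p = 0.122). The strands differed in level and were covered in different proportions by the libraries. On the plus strand 94.1% of 34 reads were methylated in E3 and 96% of 25 reads in CT (Fisher's exact p = 1), and on the minus strand 36.7% of 49 reads in E3 and 0% of 6 reads in CT (Fisher's exact p = 0.162). In the same intron, 12312907, on the plus strand, had 80% of 80 reads methylated in E3 and 100% of 32 reads in CT (Fisher's exact p = 0.00524, adjusted p = 0.107). The minus strand of that CpG went the other way, with 92.3% of 52 reads in E3 and 83.3% of 6 reads in CT and no call.

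Actn4 had the fewest calls in the hippocampus, 8 of 164 sites (4.88%), 5 higher and 3 lower in E3, against 11.0% of all CpG sites. Of its 164 sites 126 were promoter sites. Outside promoters 6 of 38 sites (15.8%) were called, beside 16.4% in Actn2 and 23.3% in Actn1. Of all exon sites 13.6% were called, and of all intron sites 14.7%. Of the 5 higher sites 4 formed the run printed above, on the minus strand at the border of a coding exon and an intron. Within it, 28913383 had 100% of 40 reads methylated in E3 and 20% of 10 reads in CT (Fisher's exact p = 8.38e-08, adjusted p = 3.9e-05). Its neighbour 28913348 had 76.9% of 39 reads methylated in E3 and 20% of 10 reads in CT (Fisher's exact p = 0.00156). At 28913419, 95% of 20 reads were methylated in E3 and 20% of 5 reads in CT (Fisher's exact p = 0.0019). The fourth site of the run, 28913319, had 89.5% of 19 reads methylated in E3 and 40% of 5 reads in CT. The totals at 28913348 and 28913383 stood at 10 in CT, beside 5 at the other sites of the run. In E3 they were 39 and 40, beside 19 and 20. Fragments may have been counted more than once there, which would make the p-values too small, and this was not tested. The CT coverage of 5 to 10 reads limits how closely these levels are known.

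The other higher site of Actn4, 28894641 in a coding exon, had 75% of 12 reads methylated in E3 and 0% of 5 reads in CT. Among the 3 lower sites of Actn4, 28962886, at -535 bases from the start, had 10.7% of 28 reads methylated in E3 and 100% of 8 reads in CT (Fisher's exact p = 5.45e-06, adjusted p = 0.000887). At 28917509, in an intron, 26.7% of 15 reads were methylated in E3 and 81.8% of 11 reads in CT (Fisher's exact p = 0.0154). At 28962062, in a coding exon near the start, 0% of 9 reads were methylated in E3 and 55.6% of 9 reads in CT (Fisher's exact p = 0.0294). The only frontal cortex CpG of Actn4, at 28894473 in an intron, had 50% in E3 and 93.0% in CT. In the hippocampus it had 91.7% of 12 reads methylated in E3 and 100% of 5 reads in CT (Fisher's exact p = 1).

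**Figure D3:**
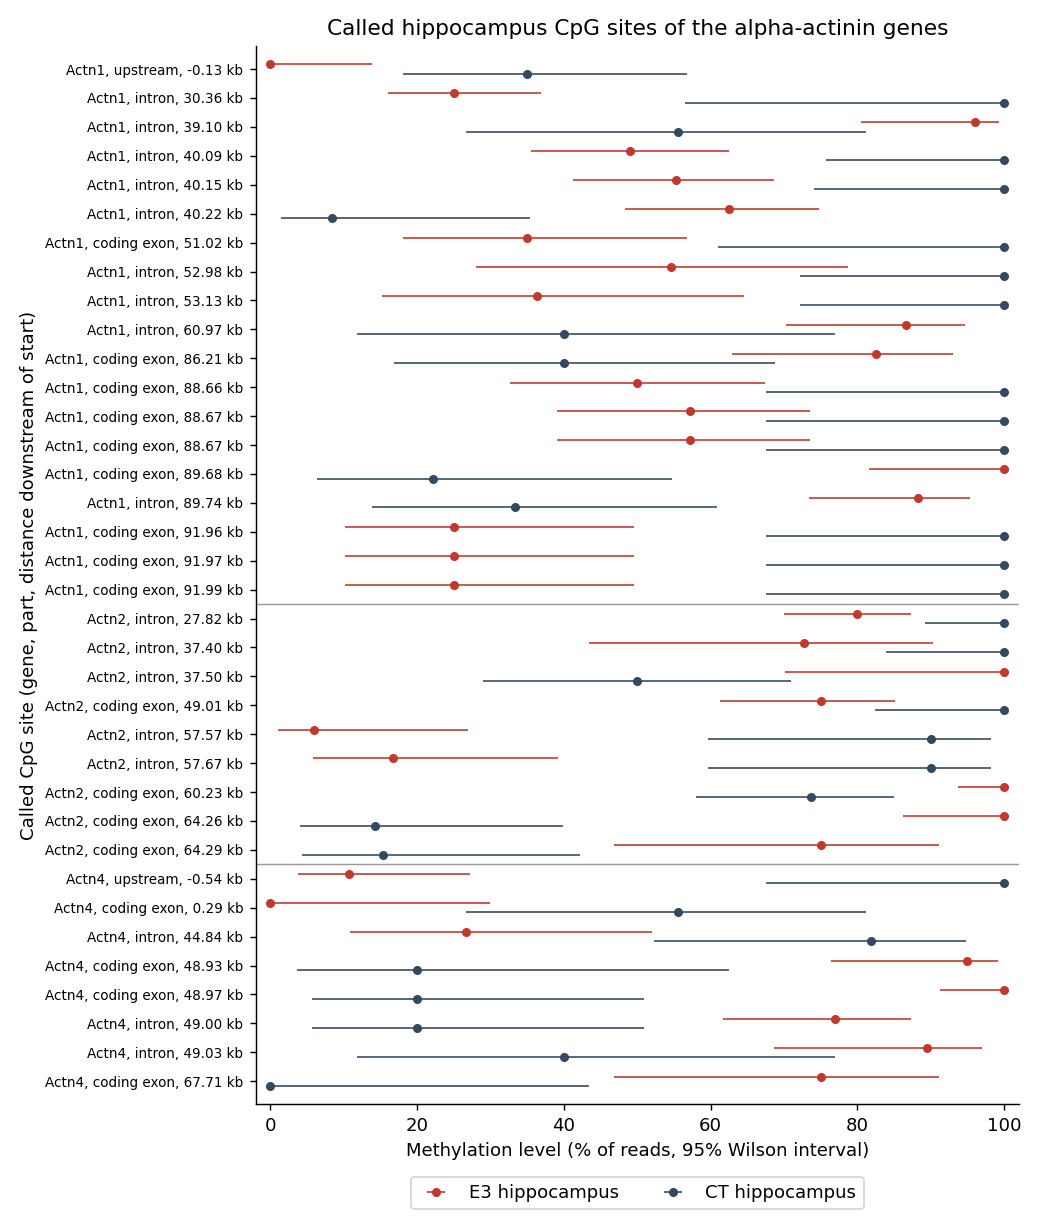
Methylation level (% of reads) with 95% Wilson intervals in E3 and CT for the 36 called hippocampus CpG sites, grouped by gene and ordered by distance from the first start. The CT level is 100% at 12 of the 13 lower sites of Actn1, and the widest intervals belong to CT levels on 5 reads.

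The calls on the strands of a CpG were compared within the libraries. Of 312 CpGs of the 3 genes, 107 were read on both strands with at least 5 reads each in both libraries. Of these 7 were called on 1 strand, 4 in Actn1 and 3 in Actn2, and 0 were called on both. The shares over all CpGs read on both strands were not counted, so these counts have no background. With the strands summed, 35 of the 312 CpGs of the 3 genes were called, 14 higher and 21 lower, where 12.1% of all CpGs were (6.73% higher and 5.36% lower).

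Cytosines outside CpGs were mostly unmethylated in the 3 genes. In the CHG context, where H is any base but G, 13 of 727 sites (1.79%) were called, 1 higher and 12 lower in E3, against 3.42% of all CHG sites (0.254% higher and 3.17% lower). In the CHH context 35 of 1765 sites (1.98%) were called, 1 higher and 34 lower, against 3.68% of all CHH sites (0.319% higher and 3.36% lower). Lower calls thus outnumbered higher ones over all sites of these contexts too. The CT coverage had a lower median than that of E3, and its part in these counts was not tested.

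Most non-CpG calls of Actn2 came from a few reads. On the plus strand of an intron, 14 called sites between 12337996 and 12338058 shared read totals of 32 or 64 in E3 and 5 or 10 in CT. At 12338018, 0% of 64 reads were methylated in E3 and 60% of 10 reads in CT (Fisher's exact p = 1.13e-06), and the CT level was 60% at all of them. At 12338012 the levels were the same on 32 and 5 reads (Fisher's exact p = 0.00129). At 12312962, in the intron of the frontal cortex site 12312990, 3.87% of 155 reads were methylated in E3 and 35.9% of 64 reads in CT (Fisher's exact p = 2.26e-09). The called CHH sites 12312940 and 12312994, on the same strand, had totals of 80 and 79 in E3 and of 32 in CT. Where totals step up like this, fragments may have been counted more than once and the p-values may be too small, which was not tested.

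The frontal cortex tables listed 5 non-CpG sites in the 3 genes, 2 higher and 3 lower in E3, where 20.5% of all listed CHG sites and 24.7% of all listed CHH sites were higher. In Actn4 the CHG site at 28894472, the base beside the listed CpG, had 42.1% in E3 and 0% in CT. The CHH site at 28895452, in a coding exon of Actn4, had 90.9% in E3 and 0% in CT. In the hippocampus it had 88.9% of 9 reads methylated in E3 and 100% of 5 reads in CT. In a coding exon of Actn2 the CHH site at 12278942 had 0% in E3 and 100% in CT. In the hippocampus that site had 62.5% of 24 reads methylated in E3 and 66.7% of 6 reads in CT. In Actn1 the CHH site at 80220301 had 2.38% in E3 and 24% in CT, and it was not measured in the hippocampus.

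A single cytosine of the 3 genes was called in the same direction in both tissues. The CHH site of Actn4 at 28962860, upstream of the start, had 0% in E3 and 22.2% in CT in the frontal cortex. In the hippocampus it had 3.85% of 52 reads methylated in E3 and 26.7% of 15 reads in CT (Fisher's exact p = 0.0198).

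Ordered by the number of frontal cortex CpG sites higher in E3, Actn1 stood at place 2 of all genes. Above it stood Pigm, which encodes a mannosyltransferase of GPI anchor synthesis, with 22 sites that averaged 43.3% in E3 and 0.894% in CT. Below it stood Mir5098, annotated as a microRNA gene, with 14 sites, which averaged 45.5% in E3 and 0.927% in CT. These sites ran from 71462152 to 71883513 on chromosome 2, too far apart for 1 microRNA gene. Of them 1 lay in an island, and Mir5098 had 5 lower sites as well. Next stood Blcap with 11 sites, which averaged 23.8% in E3 and 0.682% in CT. Nnat, which encodes the membrane proteolipid neuronatin, lies within its host gene Blcap. Both had 11 higher and 2 lower sites, so the same sites may be counted for both. The 19 sites of Actn1 averaged 34.8% in E3 and 2.92% in CT, the highest CT mean among Actn1, Pigm, Mir5098 and Blcap.

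Genes related to the alpha-actinins were counted for the background. Actn3, the other muscle form, had 19 of 124 hippocampus sites called (15.3%), 5 higher and 14 lower in E3, and 0 sites listed in the frontal cortex. Of 15 genes for other crosslinkers with spectrin repeats or calponin homology domains, 527 of 4712 sites (11.2%) were called, 312 higher and 215 lower. Dst, which encodes the spectraplakin dystonin, had 129 of 864 sites called. Dmd, the gene of dystrophin, had 87 of 582, and Utrn, the gene of its relative utrophin, had 46 of 368. Of 24 genes for known partners of alpha-actinins, 588 of 4891 sites (12.0%) were called, 374 higher and 214 lower. The most calls among them were 97 of 851 in Ttn, the gene of the giant muscle protein titin, 86 of 699 in Cacna1c, which encodes an L-type calcium channel, and 67 of 490 in Magi1, which encodes a junction scaffold. Both lists were close to the 11.0% of all CpG sites.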

How the data were processed

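DNA of the frontal cortex and hippocampus of E3 and CT female offspring was measured in 4 Methyl-MiniSeq libraries, 1 per tissue and group. According to the methods, reads were trimmed with TrimGalore, aligned to mm10 with Bismark and extracted with MethylDackel. A C-to-T variant of the outbred mice reads as an unmethylated cytosine and cannot be told apart here.

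For the hippocampus, the authors deposited the methylated fraction of each cytosine, to 2 decimals, and the total read count of each library. Methylated counts were rebuilt as the rounded product, which is exact up to about 100 reads (the largest total at a member CpG was 174). For the frontal cortex, the authors deposited fractions of called sites with no coverage. The deposited p-values, adjusted p-values and differences were not used.

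Fisher's exact test (2-sided, own code in Python checked against scipy and tested on simulated data) was run at every cytosine with at least 5 reads in both libraries and adjusted by Benjamini-Hochberg over all sites of a context. Calls needed 10 points and p under 0.05. Intervals are 95% Wilson or Newcombe intervals. They cover counting error only, since reads carry no molecular identifiers. Every read was counted as independent. Whether a fragment counted more than once where read totals stepped up between neighbours was not tested. Gene models and sequences are from RefSeq (GRCm38), since the hippocampus tables name no genes. A promoter reached 1000 bases to each side of a start. Frontal cortex placements are those of its table.

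The genes, lists and tests were chosen with earlier results of these data known. Named are the frontal cortex members, up to 3 higher and 3 lower hippocampus CpG sites per gene by p, and the genes next to Actn1 by number of higher frontal cortex sites. Sites singled out beyond this were chosen after their values were seen. Alternatives changed the coverage minimum, the difference, the adjustment, strand summing, thinning to 10 reads, pooling and gene limits.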

Additional observations from a re-analysis of the deposited data

Results flagged for a closer look

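Differences of opposite direction in the tissues stood out at 4 CpGs. In the hippocampus E3 minus CT was -75 points at the Actn1 CpGs 80168429, 80168452 and 80168455, each -75, while the frontal cortex levels there were 31.4%, 28.6% and 32.9% in E3 and 1.49%, 4.48% and 8.96% in CT. At the Actn2 CpG 12283064 it was -73.3 points in the hippocampus, with 100% in E3 and 0% in CT in the frontal cortex. The difference between the tissues was not tested, each value rests on 1 library per group, and the 3 Actn1 CpGs had the same read totals.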

How the results depend on the processing

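Of 67 alternatives over 16 results, 40 left the result the same and 27 moved it, 1 of them with a change of sign. Some of the 40 kept exactly the same sites, so the result could not differ. Among these were a wider gap and strand summing in the Actn1 stretch. Strands counted once in the frontal cortex and the gene body alone for the mean of Actn2 were others. No paired analysis was possible because each group had 1 library per tissue. With levels of 0 left out, the frontal cortex counts were 13 CpGs in Actn1 and 0 in Actn2. With at least 10 reads, the called hippocampus CpG sites numbered 8 in Actn1 and 3 in Actn4, and with at least 20 reads 1 in Actn1, 2 in Actn2 and 0 in Actn4. With adjusted p-values they numbered 7 in Actn1 (3 higher, 4 lower), 4 in Actn2 (2 and 2) and 3 in Actn4 (2 and 1), and with both libraries thinned to 10 reads 3 in Actn1, 5 in Actn2 and 3 in Actn4. Runs counted once, an alternative chosen after seeing the data, gave 11 in Actn1 (5 higher and 6 lower, against 6 and 13 by site) and 5 in Actn4 (2 higher and 3 lower, against 5 and 3 by site). Pooled over reads, the mean difference of Actn1 turned its sign, to 1.40 in place of -3.13 points. With at least 10 reads, Actn2 and Actn4 had 3 called CHG sites each, and the CHH sites were 1 in Actn1, 8 in Actn2 and 6 in Actn4. With at least 20 reads, the CHG sites were 0 in Actn1, 1 in Actn2 and 1 in Actn4, and the CHH sites 0 in Actn1, 2 in Actn2 and 1 in Actn4. The stricter minimums test fewer sites, and the cause of the other changes was not tested. The difference in the Actn1 stretch lay between -41.6 and -59.6 points under its alternatives, apart from a minimum of 10 reads, which left no site. The alternatives on deposited p-values were not run. The CT coverage, with a median of 9 reads, limits every hippocampus value.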
